A study of Homo sapiens with 5 samples.

Results

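The genes described here encode the SCAN-domain family of zinc finger proteins, measured in RH4 cells, an alveolar rhabdomyosarcoma line, after knock-down of the circular RNA circVAMP3. Members were chosen by symbol: protein-coding genes whose symbol starts with ZSCAN or ZKSCAN, and the related genes SCAND1, PGBD1, MZF1, ZNF24, ZNF165, ZNF174, ZNF202, ZNF213, ZNF263, ZNF394, ZNF396, ZNF397 and ZNF498, the last now named ZSCAN25. The annotation held 41 such genes, and 35 of them had a row among the 13822 genes of the expression table: 16 ZSCAN genes, 7 ZKSCAN genes and 12 of the other symbols. The family came into view because ZSCAN31 differed between the groups in these same libraries, so the values of ZSCAN31 are a description and carry no test. Poly-A+ RNA was sequenced from 3 libraries of cells given a control siRNA (si-SCR) and 2 libraries of cells given an siRNA against the back-splicing junction of circVAMP3 (si-circVAMP3). In both groups the siRNA was delivered at 30 nM with Dharmafect-1, the medium was changed at 24 h and the cells were collected 24 h later. The comparison asks which transcripts differ when the circular RNA is depleted. The effective library sizes recovered from the values were 26700000, 25000000 and 24900000 reads for si-SCR and 18500000 and 28800000 reads for si-circVAMP3.

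The SCAN domain is a leucine-rich module through which these proteins pair with themselves and with each other. It is found in vertebrates, usually ahead of an array of C2H2 zinc fingers that bind DNA, and is related to the capsid protein of an ancient retroelement. Several members, the ZKSCAN genes among them, also carry a KRAB domain, the module through which many zinc finger proteins recruit the co-repressor TRIM28 to silence DNA. Family genes lie in groups on a few chromosomes, many of them beside the histone and transfer RNA genes of the short arm of chromosome 6.

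The siRNA against circVAMP3 had the listed sequence below, shown because it defines the treated group.
si-circVAMP3: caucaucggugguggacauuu
The linear messenger of the host gene VAMP3, a vesicle SNARE protein, had 36.4, 35.4 and 37.4 FPKM (fragments per kilobase of gene, scaled to library size) in si-SCR against 29.4 and 30.2 FPKM in si-circVAMP3. Both si-circVAMP3 libraries lay below every si-SCR library. The difference was -0.29 on the log2(FPKM + 0.1) scale, on which all differences here are given (SE 0.044, adjusted p = 0.00507, limma over 13681 genes). Without si-circVAMP3 replicate 1 the adjusted p was 0.0524. These gene-level values do not measure the circular RNA itself.

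The cell line label was compared with marker genes. Of 8 myogenic and rhabdomyosarcoma markers, 7 had a row, limma called 2 of them lower and 0 higher at an adjusted p under 0.05, against 14.7% and 12.8% of all genes tested. The counts were the same at an unadjusted p under 0.05 (20.7% and 19.7% of all genes) and by limma-voom (16.0% and 14.8%). With libraries left out, 4 were lower without si-SCR replicate 3 and 1 without si-SCR replicate 2. Calls over all genes, in both directions, then numbered 4012 and 2152, against 3767 with all 5 libraries. With 1 si-circVAMP3 library left out, fewer markers and fewer of all genes were called. MYOD1, the muscle determination factor, had 115, 105.5 and 84.3 FPKM in si-SCR and 105.6 and 126.6 FPKM in si-circVAMP3, and DES, the muscle intermediate filament and most abundant of the 7, had between 248.1 and 291.5 FPKM. PAX3, the least abundant of the 7, had 2.23, 2.46 and 2.31 FPKM in si-SCR and 2.16 and 2.13 FPKM in si-circVAMP3. In every library that was below the median of all genes (4.67 to 4.77 FPKM). The 7 markers summed to 744.4, 740.3 and 636.2 FPKM in si-SCR and 615.4 and 619.1 FPKM in si-circVAMP3. MYOG, a factor of muscle differentiation, had 175.4, 178.6 and 149 FPKM in si-SCR against 100.7 and 96.6 FPKM in si-circVAMP3 (log2 difference -0.76, adjusted p = 0.00159, limma). FOXO1, whose 3′ part belongs to the fusion gene of many alveolar tumours, was the other listed marker past the threshold (log2 difference -0.28, adjusted p = 0.0259, limma). It is in the list as a rhabdomyosarcoma marker and not as a muscle gene. FOXO1 lost the call without si-SCR replicate 2 (adjusted p = 0.0875, limma). Its log2 difference was -0.23 without si-circVAMP3 replicate 1 and -0.32 without replicate 2. MYF5 had no row, nor had the 4 haematopoietic and the 3 epithelial markers, and of 3 endothelial markers PECAM1 alone had a row, at 0.0777 to 0.153 FPKM. The deposited values include 0 zeros, so a gene with no row has no value here and was not shown to be absent. The part of the lower MYOG in the results below was not tested.

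All 35 members passed the filter on low values, a mean of at least 0.1 FPKM over the 5 libraries. ZNF24 was the most abundant, with 25.0, 23.6 and 25.1 FPKM in si-SCR and 26.5 and 26.1 FPKM in si-circVAMP3. ZNF24, a regulator of progenitor proliferation, stood well above the next genes: ZSCAN21 averaged 9.95 FPKM, ZKSCAN1 8.55, ZNF263 8.35 and ZKSCAN5 7.29 over the 5 libraries. At the other end, ZNF396 averaged 0.192 FPKM, ZNF165 (known from testis and tumours) 0.297 and ZSCAN1 0.365. The summed FPKM of the family was 133.3, 131.7 and 132.4 in si-SCR and 139.7 and 140.9 in si-circVAMP3. The median of the 34 members other than ZSCAN31 was 2.38 to 2.44 FPKM in si-SCR and 2.31 and 2.21 FPKM in si-circVAMP3, below the median of all genes in every library (4.67 to 4.77 FPKM). The 6 members with no row, and so with no value here, were ZSCAN4 and ZSCAN10, known from early embryos and pluripotent cells, ZSCAN5B, ZSCAN5C, ZSCAN23 and ZKSCAN8P1.

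**Figure D1:**
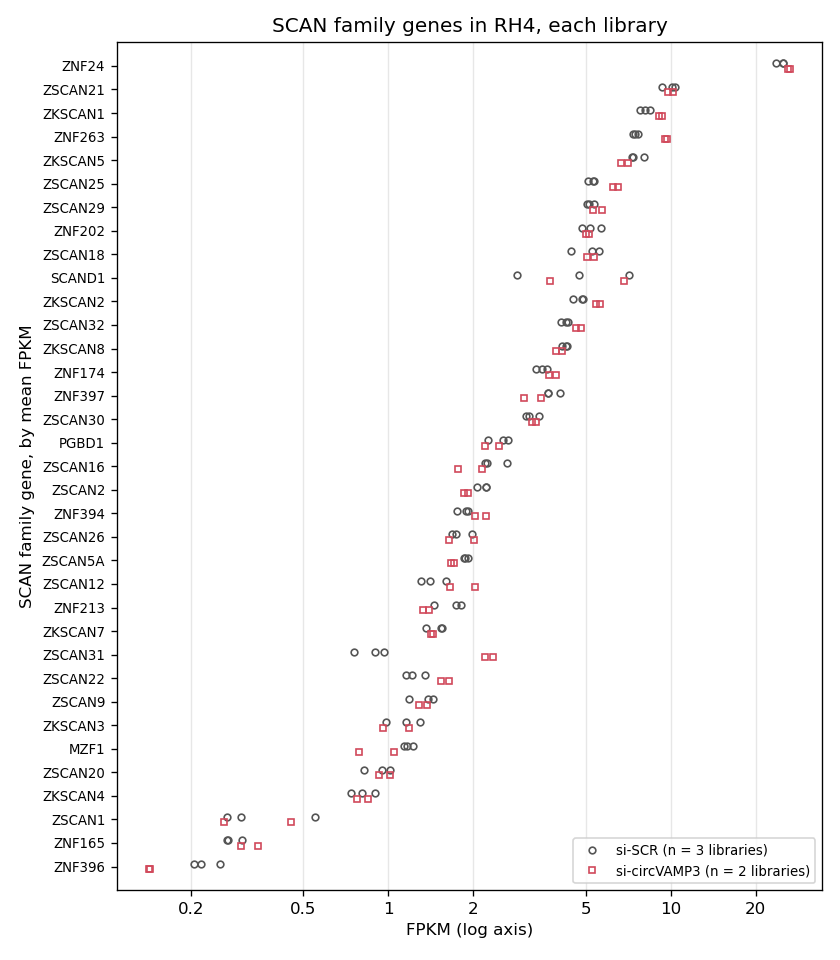
FPKM of the 35 SCAN family genes on a log axis, ordered by mean, with each si-SCR library as a grey circle (n = 3) and each si-circVAMP3 library as a red square (n = 2). ZSCAN31 shows the widest gap between the groups, and the 5 SCAND1 libraries are spread from 2.85 to 7.14 FPKM with the groups mixed.

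ZSCAN31 (ENSG00000235109; GRCh38 chr6:28324693-28356271, minus strand), the gene that gave the family its label, had 0.756, 0.896 and 0.962 FPKM in si-SCR and 2.34 and 2.21 FPKM in si-circVAMP3. Both si-circVAMP3 values were more than double the highest si-SCR value. Whole reads recovered from these values were 100, 111 and 119 in si-SCR and 215 and 315 in si-circVAMP3. The group means were 0.872 ± 0.105 FPKM (SD, n = 3) and 2.27 ± 0.0945 FPKM (SD, n = 2), a ratio of 2.61. On the log2 scale the difference was 1.29, in place 9 from the top among 13681 genes. The size of the log2 difference follows the constant added to this low gene: it was 1.02 with 0.5 FPKM and 0.81 with 1 FPKM in place of 0.1.

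Among the other 34 members, limma called 2 higher in si-circVAMP3 at an adjusted p under 0.05, ZNF263 and ZSCAN25, and 0 lower. Over all genes tested, 12.8% were called higher and 14.7% lower. At an unadjusted p under 0.05, 6 of the 34 were higher and 3 lower, against 19.7% and 20.7% of all genes. limma-voom on the recovered reads called 4 of the 34 higher and 0 lower, against 14.8% and 16.0% of all genes. It took the reads of all rows, also where they are known up to a common divisor only, as for ZNF263, and its weights depend on the size of the counts. Libraries of the 2 groups did not overlap for 10 of the 34 that were higher and 8 that were lower, against 28.0% and 28.6% of all genes, and they overlapped for 16. Without si-SCR replicate 2 limma called 1 of the 34, ZNF263. Calls over all genes then numbered 2152, against 3767 with all 5 libraries. With 1 si-circVAMP3 library left out, fewer of the 34 and fewer of all genes were called. The median log2 difference of the 35 members was 0.019, beside 0.0030 for all genes tested. The same shares over all genes apply to counts of calls below made with the same tests on all 5 libraries. They do not apply where a library was left out or a setting changed. Nothing is read from these counts, since the family was picked with this contrast in view.

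ZNF263 (ENSG00000006194; chr16:3283283-3301401, plus strand), a SCAN and KRAB zinc finger protein that binds many promoters, had 7.34, 7.46 and 7.69 FPKM in si-SCR and 9.74 and 9.52 FPKM in si-circVAMP3. The si-SCR values lay close together and both si-circVAMP3 values stood above them. The log2 difference was 0.36 (SE 0.054, 95% interval 0.23 to 0.49, adjusted p = 0.00502, limma), and the adjusted p was 0.0515 without si-circVAMP3 replicate 1.

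ZSCAN25 (ENSG00000197037; chr7:99616946-99632408, plus strand), a little-studied member, had 5.09, 5.29 and 5.35 FPKM in si-SCR and 6.27 and 6.52 FPKM in si-circVAMP3. Again the groups were apart. The log2 difference was 0.28 (SE 0.062, 95% interval 0.13 to 0.43, adjusted p = 0.0175, limma). The call was lost without si-SCR replicate 2 (adjusted p = 0.0597) and without si-circVAMP3 replicate 1 (0.079) or 2 (0.121).

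**Figure D2:**
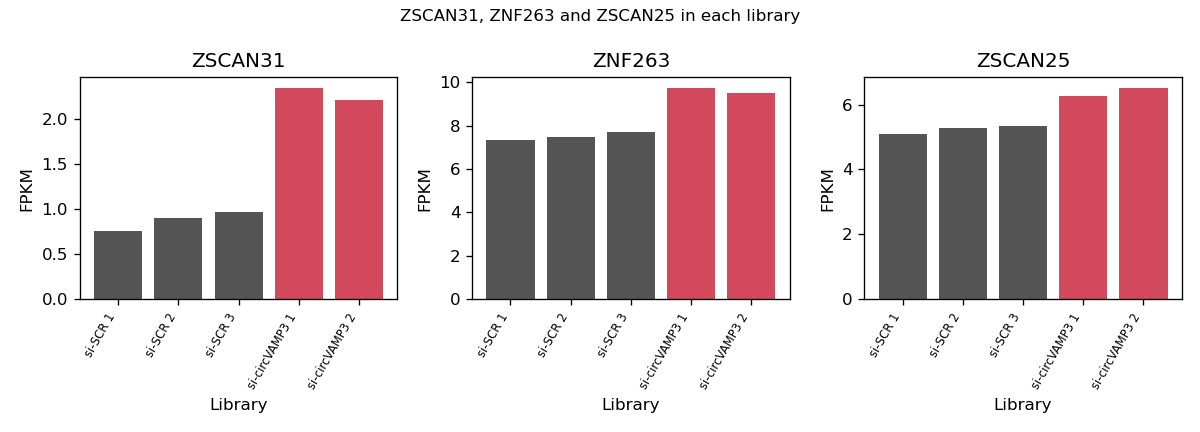
FPKM of ZSCAN31, ZNF263 and ZSCAN25 in each library, si-SCR in grey (n = 3) and si-circVAMP3 in red (n = 2), each bar 1 library and each axis starting at 0. ZSCAN31 goes from at most 0.962 FPKM to at least 2.21 FPKM, while ZNF263 and ZSCAN25 are more abundant and differ by 0.36 and 0.28 on the log2 scale.

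The promoters of these 3 genes are shown because ZSCAN31 gave the family its label and limma called the other 2. Each is the window from 250 bases before to 50 bases after the gene start in RefSeq (GRCh38.p14), 5′ to 3′ along the gene's strand, with CG dinucleotides in capitals. They lie at chr6:28356222-28356521 (minus strand), chr16:3283241-3283540 (plus strand) and chr7:99616696-99616995 (plus strand).
ZSCAN31: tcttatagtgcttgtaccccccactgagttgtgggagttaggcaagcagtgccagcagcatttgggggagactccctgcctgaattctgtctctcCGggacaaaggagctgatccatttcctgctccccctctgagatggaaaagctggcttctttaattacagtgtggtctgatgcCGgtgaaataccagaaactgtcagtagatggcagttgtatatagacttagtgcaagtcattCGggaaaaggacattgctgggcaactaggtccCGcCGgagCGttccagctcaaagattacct
ZNF263: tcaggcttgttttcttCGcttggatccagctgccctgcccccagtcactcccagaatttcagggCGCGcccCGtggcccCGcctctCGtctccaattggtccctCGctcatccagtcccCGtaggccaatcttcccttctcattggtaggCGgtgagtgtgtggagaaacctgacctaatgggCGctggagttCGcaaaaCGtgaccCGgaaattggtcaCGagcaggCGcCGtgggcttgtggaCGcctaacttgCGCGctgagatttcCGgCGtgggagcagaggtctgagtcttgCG
ZSCAN25: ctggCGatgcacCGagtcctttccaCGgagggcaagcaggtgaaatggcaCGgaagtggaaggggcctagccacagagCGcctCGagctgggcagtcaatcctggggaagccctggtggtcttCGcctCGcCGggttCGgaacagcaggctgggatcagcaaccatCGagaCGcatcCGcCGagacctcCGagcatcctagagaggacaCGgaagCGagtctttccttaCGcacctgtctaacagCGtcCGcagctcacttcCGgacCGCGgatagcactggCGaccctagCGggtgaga
RefSeq windows matched 29 of the 35 members. The RefSeq start equals the GENCODE start of ZSCAN31 and ZSCAN25 and lies 208 bases downstream of it for ZNF263, and the starts were equal for 14 of the 29. The ZSCAN31 window held 6 CG dinucleotides and 50.3% G and C, the ZNF263 window 22 and 60.3%, and the ZSCAN25 window 25 and 62.7%. Over the 29 members the medians were 25 CG dinucleotides and 64.0% G and C, and for 9837 protein-coding genes with a row they were 27 and 65.7%. Of the matched members, ZSCAN31 had the fewest CG dinucleotides, followed by ZKSCAN3 with 10. On either strand, the GC box GGGCGG was in 19 of the 29 windows (71.0% of all windows), CCAAT in 10 (37.2%), the E-box CAGCTG in 5 (16.9%) and TATAAA in 0 (5.17%). None of these 4 motifs was in the windows of ZSCAN31 or ZSCAN25, and ZNF263 had CCAAT 5 times, 2 of them overlapping on opposite strands, and CAGCTG 1 time. A match of letters is not a bound site.

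ZSCAN31 lies in the largest position group of the family, 12 genes within 362.9 kb on chromosome 6, of which 10 had a row. The other 9 were not called in either direction by limma. At an unadjusted p under 0.05, 1 of them was higher and 0 were lower, and limma-voom called 0. The median log2 difference of the 9 was -0.0061.

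ZKSCAN3, known as a repressor of autophagy genes, overlaps ZSCAN31 by 6325 bases, with the gene starts inside each other's bodies and the transcripts on opposite strands. It had 1.16, 0.983 and 1.29 FPKM in si-SCR and 1.18 and 0.954 FPKM in si-circVAMP3. These values overlapped between the groups (log2 difference -0.09, 95% interval -0.45 to 0.26, adjusted p = 0.687, limma). The library kit marks strand and the authors counted by strand, so reads of the 2 genes were counted apart.

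ZSCAN12, the next member beyond ZKSCAN3, starts 43.5 kb from the start of ZSCAN31 on the same strand as ZSCAN31. It had 1.30, 1.41 and 1.60 FPKM in si-SCR and 2.03 and 1.65 FPKM in si-circVAMP3. The lower si-circVAMP3 value was just above the highest si-SCR value, and the log2 difference of 0.34 did not pass the threshold (95% interval 0.02 to 0.65, adjusted p = 0.104, limma). It was 0.19 without si-circVAMP3 replicate 1 and 0.48 without replicate 2.

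ZSCAN16, farther out in the group, had 2.23, 2.63 and 2.19 FPKM in si-SCR and 2.15 and 1.76 FPKM in si-circVAMP3. Its log2 difference was -0.25 (adjusted p = 0.177, limma), with replicate 1 of si-circVAMP3 only just under the si-SCR libraries. It was -0.39 without that replicate and -0.12 without replicate 2.

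For the remaining members of this group the libraries of the 2 groups overlapped. PGBD1, which joins a SCAN domain to a domain from a piggyBac transposase, had 2.54, 2.25 and 2.66 FPKM in si-SCR and 2.47 and 2.195 FPKM in si-circVAMP3. The log2 differences were -0.09 for PGBD1, 0.019 for ZSCAN26, -0.0036 for ZKSCAN4, -0.0061 for ZSCAN9, -0.07 for ZKSCAN8 and 0.15 for ZNF165. All 6 had adjusted p values of 0.468 or more in limma. With each library left out in turn, PGBD1 ran from -0.17 to -0.0031, ZKSCAN8 from -0.10 to -0.030 and ZNF165 from 0.074 to 0.23. The sign turned for ZSCAN26, ZKSCAN4 and ZSCAN9, and for ZKSCAN3, when some libraries were left out.

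Beside the members, 5 protein-coding genes with a row start within 1 Mb of ZSCAN31, namely ZNF391, ZNF184, the histone gene H2BC15, SCAND3 and TRIM27. SCAND3 is a SCAN-domain gene that the symbol rule does not take in. Their log2 differences ran from -0.0019 to 0.19. limma called 0 of the 5, at an adjusted p under 0.05 and also at an unadjusted one, as did limma-voom.

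**Figure D3:**
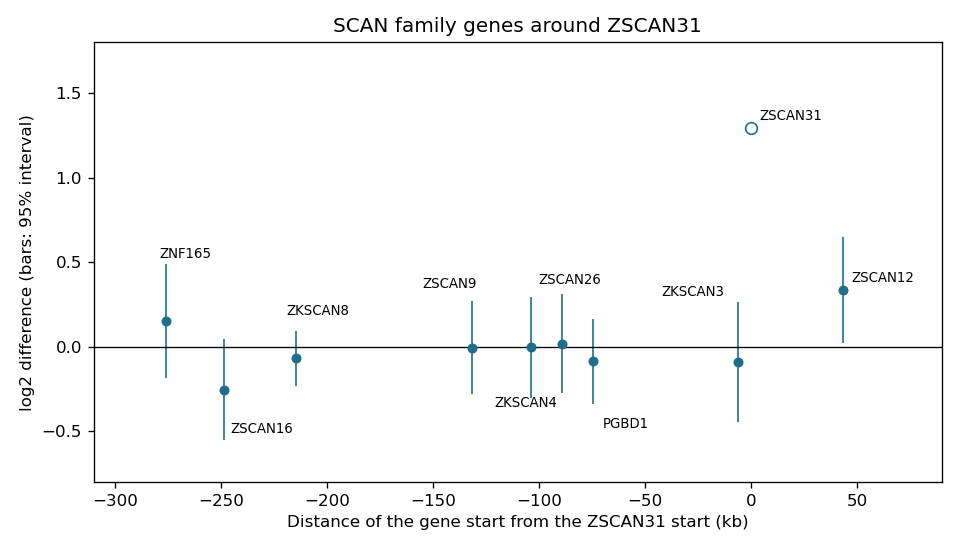
The log2 difference (si-circVAMP3 minus si-SCR, points, with 95% intervals as bars except for ZSCAN31, an open circle) of the 10 SCAN family genes of the chromosome 6 group against the distance of each gene start from that of ZSCAN31 in kb. ZSCAN31 is at 1.29, ZSCAN12 at 0.34, and the intervals of the other 8 genes include 0.

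Of the 15 ZSCAN genes other than ZSCAN31, limma called 1 higher, ZSCAN25, and 0 lower, and their median log2 difference was 0.029. At an unadjusted p under 0.05, 3 of the 15 were higher. None was lower at an unadjusted p under 0.05 or by limma-voom. ZSCAN22 had 1.21, 1.35 and 1.15 FPKM in si-SCR and 1.63 and 1.54 FPKM in si-circVAMP3. Its groups were apart, and the log2 difference of 0.34 had an adjusted p of 0.0591 (limma, SE 0.108). With 1 FPKM in place of 0.1 it was 0.21 and passed the threshold (adjusted p = 0.0491), as it did without the trend (0.0422). ZSCAN21 had 9.33, 10.1 and 10.3 FPKM in si-SCR and 10.2 and 9.78 FPKM in si-circVAMP3, with the groups overlapping and a log2 difference of 0.012.

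Of the 7 ZKSCAN genes, which also carry KRAB, limma called 0, with 2 higher and 0 lower at an unadjusted p under 0.05. These 2 were called by limma-voom, and both were close to the threshold in limma. ZKSCAN1, also the host gene of an abundant circular RNA, had 8.43, 8.08 and 7.82 FPKM in si-SCR and 9.31 and 9.11 FPKM in si-circVAMP3 (log2 difference 0.18, adjusted p = 0.0552, limma; 0.027, limma-voom). ZKSCAN2, named here after its values were seen, had 4.51, 4.88 and 4.86 FPKM in si-SCR and 5.42 and 5.60 FPKM in si-circVAMP3 (log2 difference 0.21, adjusted p = 0.0597, limma; 0.0286, limma-voom). In both genes the si-circVAMP3 libraries lay above all si-SCR libraries. ZKSCAN5 had 7.32, 7.34 and 8.02 FPKM in si-SCR and 7.08 and 6.69 FPKM in si-circVAMP3, with a log2 difference of -0.13 (adjusted p = 0.189, limma).

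Of the 12 members with other symbols, limma called ZNF263 higher and 0 lower, with 3 lower at an unadjusted p under 0.05 and 0 lower by limma-voom. ZNF396, the least abundant member, had 0.253, 0.204 and 0.218 FPKM in si-SCR and 0.142 and 0.143 FPKM in si-circVAMP3, from 41, 31 and 33 against 16 and 25 reads. Its groups did not overlap, but the log2 difference of -0.42 (95% interval -0.78 to -0.05) missed the threshold (adjusted p = 0.0857, limma), and so few reads leave a wide counting error. The value follows the constant added to this low gene: it was -0.17 with 0.5 FPKM and -0.10 with 1 FPKM in place of 0.1, and -0.64 with limma-voom, and it passed the threshold in none of these 3. It did pass in limma without the trend (adjusted p = 0.0239).

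MZF1, a factor of myeloid cells, had 1.13, 1.17 and 1.22 FPKM in si-SCR and 0.787 and 1.05 FPKM in si-circVAMP3. Its log2 difference of -0.34 (adjusted p = 0.116, limma) was -0.15 without si-circVAMP3 replicate 1 and -0.52 without replicate 2. ZNF213 had 1.82, 1.74 and 1.46 FPKM in si-SCR and 1.32 and 1.39 FPKM in si-circVAMP3 (log2 difference -0.28, adjusted p = 0.133, limma), and passed the threshold without si-SCR replicate 3 (adjusted p = 0.0379). ZNF397 had 3.68, 3.66 and 4.07 FPKM in si-SCR and 3.03 and 3.47 FPKM in si-circVAMP3, a log2 difference of -0.22 (adjusted p = 0.12, limma) that was -0.13 without si-circVAMP3 replicate 1. In each of these 3 genes both si-circVAMP3 libraries lay below all si-SCR libraries.

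SCAND1, which has a SCAN domain and no zinc fingers, was the most variable member relative to its level, as seen after its values were read. It had 7.14, 4.75 and 2.85 FPKM in si-SCR and 3.73 and 6.85 FPKM in si-circVAMP3. The si-SCR range covered both si-circVAMP3 values, and the interval of the SCAND1 log2 difference of 0.14 ran from -0.79 to 1.06. ZSCAN1 was next, with a coefficient of variation of 41.1% among the si-SCR libraries beside 43.7% for SCAND1, and rested on 16 to 35 reads a library.

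**Figure D4:**
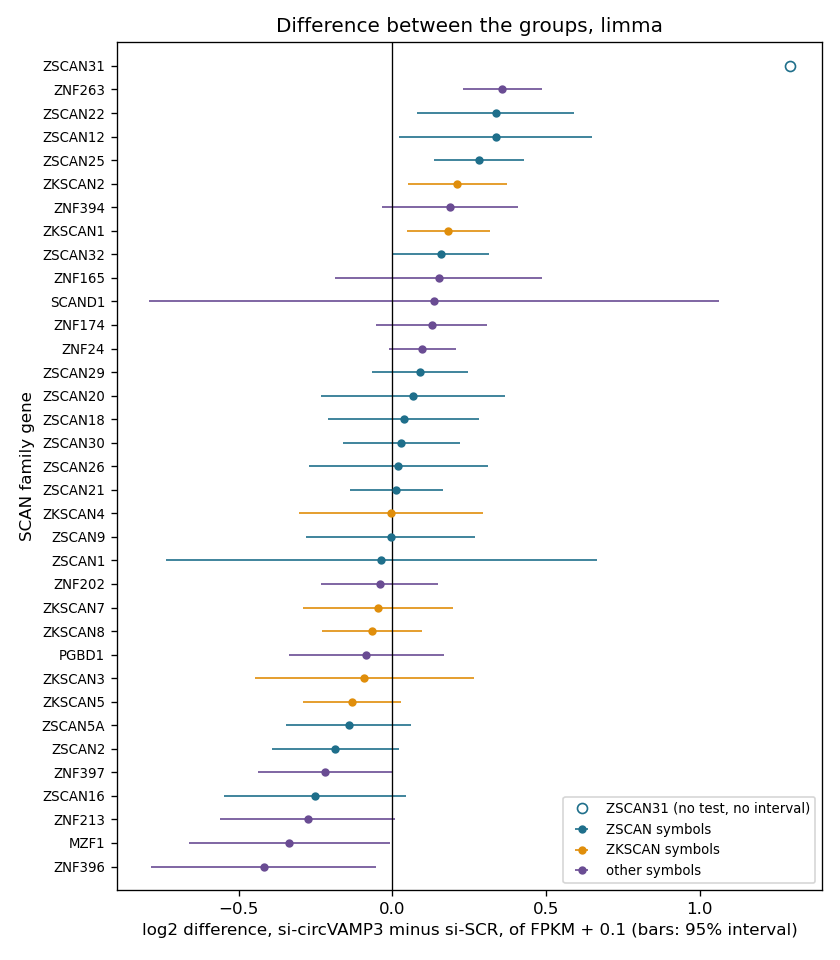
The log2 difference between si-circVAMP3 and si-SCR on FPKM + 0.1 for the 35 SCAN family genes, in order of size, with 95% intervals from limma as bars except for ZSCAN31, an open circle, and colours for ZSCAN, ZKSCAN and other symbols. ZSCAN31 is at 1.29 and all others lie between -0.42 and 0.36.

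The other position groups can be set beside that of chromosome 6. On chromosome 16, 4 members within a group of 5 genes had ZNF263 called higher and a median log2 difference of 0.14. ZSCAN32 and ZNF174 of this group start 150 bases apart and point away from each other. ZSCAN32 had 4.09, 4.27 and 4.32 FPKM in si-SCR and 4.81 and 4.64 FPKM in si-circVAMP3, and ZNF174 had 3.50, 3.32 and 3.63 FPKM against 3.72 and 3.92 FPKM. Their log2 differences were 0.16 and 0.13, with adjusted p values of 0.125 and 0.257 in limma. On chromosome 7, 5 members had ZSCAN25 called higher and a median log2 difference of 0.18. ZNF394 and ZKSCAN5 of that group also start head to head, overlapping by 196 bases, and had log2 differences of opposite sign, 0.19 and -0.13, neither of which passed the threshold (adjusted p = 0.18 and 0.189, limma). On chromosome 18 (4 members) and chromosome 19 (5 members) limma called 0, with 2 lower and 0 higher and with 1 higher and 1 lower at an unadjusted p under 0.05. limma-voom called 0 in both. The medians were -0.10 and -0.04. The 5 chromosome 19 members do not form 1 position group, since ZSCAN5A lies more than 1 Mb from the others with a row. The log2 differences on chromosome 19 were -0.14 for ZSCAN5A, -0.036 for ZSCAN1, 0.036 for ZSCAN18, 0.34 for ZSCAN22 and -0.34 for MZF1. For these pairs and groups, differences between members were not tested.

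Genes with a SCAN domain outside the rule were followed as a list of 15, all with a row. SCAND3, described above, is not in it. limma called 4 lower and 0 higher, against 14.7% and 12.8% of all genes, and limma-voom did likewise, against 16.0% and 14.8%. At an unadjusted p under 0.05, 5 were lower and 1 higher, against 20.7% and 19.7%. ZNF75D had 6.86, 6.67 and 6.57 FPKM in si-SCR and 4.77 and 4.85 FPKM in si-circVAMP3 (log2 difference -0.47, adjusted p = 0.00269, limma). Both si-circVAMP3 libraries were clearly below, and ZNF75D stayed past the threshold with each library left out in turn. PEG3, the imprinted and abundant gene of the list, had 104.3, 103 and 107.9 FPKM in si-SCR and 89.99 and 89.76 FPKM in si-circVAMP3 (log2 difference -0.22, adjusted p = 0.00802, limma), and lost the call without si-circVAMP3 replicate 1 (0.0629) or 2 (0.0669). ZNF445, a regulator of imprinting, and ZNF287 had log2 differences of -0.32 and -0.35 (adjusted p = 0.0241 and 0.0371, limma). ZNF445 lost its call without si-SCR replicate 2 (adjusted p = 0.0834) and without si-circVAMP3 replicate 1 (0.139) or 2 (0.0949). ZNF287 lost its call with any of the 5 libraries left out (adjusted p = 0.0531 to 0.176). Leaving out si-SCR replicate 2 left 2 calls in the list, and leaving out si-SCR replicate 1 or 3 left 3. Calls over all genes went from 3767 to 3027, 2152 and 4012 without si-SCR replicate 1, 2 and 3. With 1 si-circVAMP3 library left out, fewer were called in the list and over all genes. The median of the list was -0.03.

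Of 12 co-repressor and silencing genes that act with KRAB zinc finger proteins, ZNF274 being in the previous list too, limma called HDAC1 higher and 0 lower, with 2 higher and 1 lower at an unadjusted p under 0.05 and 1 higher and 0 lower by limma-voom. HDAC1, a histone deacetylase, had 48.9, 48.1 and 51.7 FPKM in si-SCR and 60.5 and 59.6 FPKM in si-circVAMP3 (log2 difference 0.28, adjusted p = 0.00679, limma), and fell short of the threshold without si-circVAMP3 replicate 1 (0.0603) or 2 (0.0522). UHRF1, a chromatin protein that recruits DNMT1, was the other gene higher at an unadjusted p under 0.05 and is named here after its values were seen. It had 45.8, 42.2 and 32.4 FPKM in si-SCR and 49.2 and 51.4 FPKM in si-circVAMP3, with the groups apart (log2 difference 0.34, adjusted p = 0.108, limma). It passed the threshold without si-SCR replicate 1 (log2 difference 0.44, adjusted p = 0.0471) or replicate 3 (0.19, adjusted p = 0.0368). TRIM28 itself had 83.4, 81.8 and 68.6 FPKM in si-SCR and 82.7 and 83.2 FPKM in si-circVAMP3. Its groups overlapped (log2 difference 0.09, adjusted p = 0.445, limma). Among 434 other genes with a ZNF number that passed the filter, 30 were called higher and 20 lower, against 12.8% and 14.7% of all genes. Their log2 differences ran from -0.82 to 0.50 with a median of 0.03. The 434 include the 15 SCAN-domain genes above except PEG3, so ZNF75D, ZNF445 and ZNF287 are counted again among the lower. Without si-SCR replicate 2 the calls among the 434 numbered 16 in all, and those over all genes went from 3767 to 2152. With 1 si-circVAMP3 library left out, fewer were called in the list and over all genes.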

How the data were processed

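The authors trimmed reads with Trimmomatic, aligned them with STAR 2.5.2b to GRCh38 with Ensembl 99, counted reads per gene with HTSeq by strand and deposited FPKM made with edgeR. Gene names and positions came from GENCODE 44 on GRCh38 (13783 of 13822 rows matched). limma 3.58.1 in R 4.3.3 (lmFit, eBayes with trend) compared 3 si-SCR with 2 si-circVAMP3 libraries on log2(FPKM + 0.1), over 13681 genes with a mean of at least 0.1 FPKM, two-sided, with Benjamini-Hochberg adjustment and a threshold of 0.05. The fit was tested on simulated data. Whole reads were recovered for 100% of rows (relative tolerance 1e-09). For rows whose recovered gene length did not equal the annotated one (31.2%), reads are known up to a common divisor only, and none are printed, but limma-voom used them. Nothing in the labels pairs the libraries. The replicates were described by the authors as biological. ZSCAN31 chose the family, has no test and is left out of the counts of members called. Named members were ZSCAN31, those called, the 5 highest and 5 lowest log2 differences, the 5 most abundant and those near ZSCAN31. Members and lists were chosen with earlier results of these data known. Alternatives were other pseudocounts and filters, median-ratio rescaling, limma without the trend, a replicate block, a fold threshold, each library left out and limma-voom.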

Additional observations from a re-analysis of the deposited data

How the results depend on the processing

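With 3 against 2 libraries, single calls near the threshold depend on each library, and where 1 si-circVAMP3 library was left out the lone one was assumed to vary like the si-SCR libraries. All genes called numbered 3767, and 1266 to 4012 with each library left out (2152 without si-SCR replicate 2, 1278 and 1266 without si-circVAMP3 replicate 1 and 2). With a log2 difference over 0.58 also required, 793 genes passed both thresholds, 227 of them higher.

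Counts of members called leave out ZSCAN31, which chose the family. They were 2, and 0 to 3 with each library left out. They were 4 with a filter at 1 FPKM and with limma-voom (ZKSCAN1 and ZKSCAN2 added, both higher), 4 without the trend (ZSCAN22 added higher, ZNF396 lower), and 0 with the log2 difference over 0.58. limma-voom, limma without the trend for single members, and every alternative for this count without ZSCAN31, for VAMP3 and for genes outside the family were chosen after seeing the data. limma-voom called 4219 genes. With a replicate block, 2 of the 34 members, 2868 genes in all and 2 of the other SCAN-domain genes were called (ZNF445 and ZNF287 not, adjusted p = 0.0669 and 0.0908, limma), and FOXO1 was not (0.0522). By the labels, libraries of the same number share only a number. Their deviations from the group means had correlations across genes of -0.088 and -0.016. For libraries of different numbers the correlations ran from -0.063 to 0.088. Whether libraries were prepared in pairs cannot be told from these values.

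The family median stayed between -0.0012 and 0.045 with libraries left out. The log2 difference of ZSCAN31 was 1.02 and 0.81 with pseudocounts of 0.5 and 1 FPKM, which the larger constant itself brings about, and 1.21 to 1.36 with libraries left out. With 1 FPKM added, the log2 differences of low members were also nearer 0: -0.10 for ZNF396, 0.047 for ZNF165, -0.052 for ZKSCAN3, -0.18 for MZF1 and ZNF213, 0.22 for ZSCAN12 and 0.21 for ZSCAN22. That of VAMP3 was -0.31 to -0.27 with libraries left out. Signs turned for 5 named members, none of them called: ZSCAN21 (-0.031 to 0.045 with libraries left out), ZKSCAN3 (-0.23 to 0.048), ZKSCAN4 (-0.066 to 0.062, 0.062 with the block, 0.012 with limma-voom), ZSCAN26 (-0.12 to 0.15, -0.0025 with the block, -0.0058 with limma-voom) and ZSCAN9 (-0.082 to 0.047, 0.047 with the block, 0.0027 with limma-voom). The cause was not tested. Of 257 alternative values over the 20 named members other than ZSCAN31, 230 kept their sign and side of the threshold, 4 lost a call, 6 gained one and 17 changed sign.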

Other observations

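Rows beside family genes that are not themselves members gave further values. ZNF271P, a zinc finger pseudogene that starts 31 bases from ZSCAN30 on the opposite strand, had 5.70, 5.95 and 6.40 FPKM in si-SCR and 4.98 and 4.56 FPKM in si-circVAMP3. Both si-circVAMP3 libraries were lower (log2 difference -0.33, adjusted p = 0.0224, limma), while ZSCAN30 had a log2 difference of 0.03 (adjusted p = 0.818, limma). ZNF271P alone was called among non-member genes overlapping a member on the opposite strand or starting head to head with it. The others had adjusted p values of 0.0535 or more in limma. Over all genes, 14.7% were called lower and 12.8% higher. The call of ZNF271P was not tested with libraries left out. Of 4 antisense or divergent transcripts named after a member, 2 had differences of the same sign as that member and 2 of the opposite sign. The log2 differences were -0.35 for MZF1-AS1 beside -0.34 for MZF1, -0.28 for ZNF213-AS1 beside -0.28 for ZNF213, 0.18 for ZSCAN16-AS1 beside -0.25 for ZSCAN16, and -0.065 for ZKSCAN2-DT beside 0.21 for ZKSCAN2. None of these 8 genes passed the threshold in limma (adjusted p from 0.0597 to 0.81). These rows were picked after their values were seen, by their place beside a member.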
